A study of Homo sapiens with 4 samples.

Results

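The genes described here are 43 interferon-stimulated genes, chosen by name as well-known targets of interferon, and read from the gene table of 4 liver cancer cell lines. All 43 had a row among the 29670 genes of that table. The lines are SK-Hep-1, Huh-7D12, HepG2 and Hep3B, each an established human line and each represented by 1 library of ribosome-depleted total RNA, so that no test, SD or p-value can be given. Huh-7D12 is a clone of the Huh-7 line. The labels name no interferon, virus or other treatment for any line, and the values are taken as those of untreated cultures only as far as the labels go. Levels are the deposited normalized reads, scaled so that the mean library total is 1000000. Standing higher in a line means a log2(level + 1) that exceeded that of each other line by at least 2 (4-fold), and standing lower means the reverse. Where 4 values are given without names, they follow the order Hep3B, HepG2, Huh-7D12, SK-Hep-1. Intervals beside levels (exact Poisson) and folds (Clopper-Pearson) are 95% intervals and cover counting error only.

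The gene reads per library lay between 18581156 and 24409250, of which 17.4% to 47.4% were mitochondrial. Hepatocyte markers had reads for 7 of 7 genes in the other lines than SK-Hep-1, where they summed to levels of 9715 to 23718. In SK-Hep-1, which the labels also call a liver cancer line, the hepatocyte markers other than SERPINA1 were nearly absent. ALB, APOA1, HNF4A and TTR had 0 reads there, APOB had 2 and TF had 1. SERPINA1 had 752 reads (39.7), nearly all of the sum of 39.8 over the 7 markers. The 4 mesenchymal markers summed to 8542 in SK-Hep-1 against 14.0 to 785 in the other lines. The 4 endothelial markers summed to 0.106 in SK-Hep-1 and to at most 1.61 elsewhere. Of the 5 leukocyte markers in the table, the summed level was 1.16 in SK-Hep-1, 59.1 in Hep3B, 59.4 in Huh-7D12 and 2365 in HepG2. LYZ, the gene of lysozyme, held 2364 of the sum in HepG2, where CD14 had 6 reads and PTPRC and CSF1R had 0. Of the markers listed for plasmacytoid dendritic cells, CLEC4C had 0 reads in all 4 lines. IL3RA had 2 reads in SK-Hep-1 and 0 in the other lines, and LILRA4 had no row. The part of this difference in cell state in the results below was not tested, and fewer transcripts per cell and fewer expressing cells cannot be told apart in such libraries.

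Type I and type III interferons are secreted after a cell senses foreign nucleic acid. They act through the kinases JAK1 and TYK2, which activate transcription factors such as STAT2; with IRF9 it forms part of a complex that binds the interferon-stimulated response element (ISRE) of its target genes. The products restrict viruses at many steps: sensors such as RIG-I and MDA5 raise detection, OAS proteins activate an RNase, IFIT proteins bind foreign RNA, and IFITM proteins act on the fusion of viruses with membranes. Hepatocytes respond to both kinds of interferon, and IRF1 is also a main target of interferon gamma.

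The ISRE has a core of 2 GAAA repeats, and its letters are shown here. They were not read when the genes were chosen, but the genes were chosen as known targets of interferon. A high share of cores can follow from that choice and is a description only. The core GAAANNGAAA was searched on both strands in RefSeq promoters (GRCh38.p14), from 250 bases before to 50 bases after the gene start; cores 6 bases apart overlap and were counted separately. Of the 43 genes, 34 had a promoter in the table, and 21 of these (61.8%) held at least 1 core, against 3.57% of all 35116 promoters of the same length and 3.17% of the 22199 of protein-coding genes. Followed by a C, the core occurred in 18 of the 34 (52.9%) and in 0.795% of all promoters. DDX58 was matched under its newer RefSeq symbol RIGI. DHX58, IFIT2, IFITM2, IRF7, MX2, OAS2, OASL, TRIM22 and USP18 are the other 9.

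The 4 promoters printed are those of the genes with the largest log2 difference to the nearest other line, among the genes that passed the 4-fold rule and hold a core, 1 per locus. Capitals mark the cores, and each sequence runs 5′ to 3′ on the strand of the gene. LGALS3BP lies on the minus strand (chr17:78979874-78980173), IFITM3 on the minus strand (chr11:320811-321110), IFIT3 on the plus strand (chr10:89327747-89328046) and SAMD9 on the minus strand (chr7:93117930-93118229). In IFIT3 the cores lie on the opposite strand, so that they read TTTC in place of GAAA.
LGALS3BP: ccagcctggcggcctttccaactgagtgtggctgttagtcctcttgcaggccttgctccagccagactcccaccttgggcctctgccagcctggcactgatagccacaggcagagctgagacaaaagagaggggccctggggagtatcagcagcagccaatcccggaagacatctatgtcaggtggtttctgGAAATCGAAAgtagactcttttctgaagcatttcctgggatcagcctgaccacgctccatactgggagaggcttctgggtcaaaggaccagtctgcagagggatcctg
IFITM3: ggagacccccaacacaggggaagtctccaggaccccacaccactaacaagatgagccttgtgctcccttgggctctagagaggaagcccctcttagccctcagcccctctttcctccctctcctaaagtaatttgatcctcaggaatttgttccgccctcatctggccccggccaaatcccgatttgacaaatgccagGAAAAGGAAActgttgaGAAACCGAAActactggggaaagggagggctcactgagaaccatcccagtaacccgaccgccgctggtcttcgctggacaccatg
IFIT3: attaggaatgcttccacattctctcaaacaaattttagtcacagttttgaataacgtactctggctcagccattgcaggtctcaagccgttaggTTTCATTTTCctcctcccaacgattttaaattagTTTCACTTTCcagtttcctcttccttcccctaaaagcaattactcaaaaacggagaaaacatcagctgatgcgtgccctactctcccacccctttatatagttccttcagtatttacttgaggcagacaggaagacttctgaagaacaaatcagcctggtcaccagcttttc
SAMD9: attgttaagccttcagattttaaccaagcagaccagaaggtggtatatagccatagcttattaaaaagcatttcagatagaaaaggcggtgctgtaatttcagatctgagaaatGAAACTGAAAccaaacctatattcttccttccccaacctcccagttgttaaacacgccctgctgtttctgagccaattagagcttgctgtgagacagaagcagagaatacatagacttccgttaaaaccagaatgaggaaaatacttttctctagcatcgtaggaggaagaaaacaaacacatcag

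Read on their own strand, the cores are GAAATCGAAA in LGALS3BP, GAAAAGGAAA and GAAACCGAAA in IFITM3, GAAAATGAAA and GAAAGTGAAA in IFIT3, and GAAACTGAAA in SAMD9. They begin 58 bases before the start in LGALS3BP, 52 and 35 bases before it in IFITM3, 156 and 122 in IFIT3 and 136 in SAMD9. Over the 21 genes there were 38 cores, 24 on the strand of the gene and 14 on the other, and 37 of them began before the gene start, by up to 164 bases. The core that began after it is in MX1, which encodes a GTPase against RNA viruses. Of the 7 genes with a promoter that stood higher in SK-Hep-1 4 held a core, and 17 of the other 27 did.

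**Figure D1:**
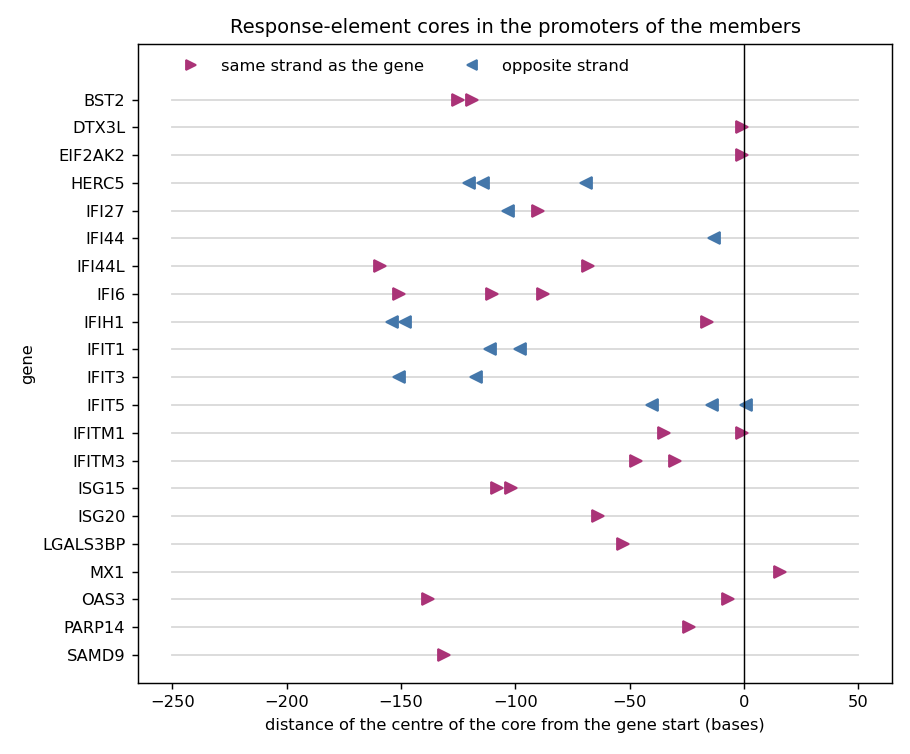
Position of each ISRE core in the promoters of the 21 genes that hold one; the x axis is the distance of its centre from the gene start in bases, each grey line spans the window searched, and the arrowhead and colour give the strand. Of 38 cores, 37 begin before the start and 13 of the 34 promoters hold 2 or more.

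Most of the genes were at low levels and most had their highest level in SK-Hep-1. A gene entered the comparison when its highest level was at least 1, which held for 38 of the 43 and for 15850 of all genes. IFI27, IFI44L, IFITM1, OASL and RSAD2 did not. Of the 43, 28 had reads in all 4 lines. Among the 38, 4 had no reads in Hep3B (6.11% of all genes that entered), 5 had none in HepG2 (8.71%), 6 none in Huh-7D12 (5%) and 1 none in SK-Hep-1 (8.04%). The highest level was in SK-Hep-1 for 29 of the 38 genes (33% of all genes that entered), in Huh-7D12 for 6 (23.1% of all genes), in HepG2 for 3 (22.2%) and in Hep3B for 0 (21.7%). Because a gene could enter through the line in which it was high, these counts are a description and not evidence of a difference. For 39 of the 43 genes the fold between the highest line and the second had an interval above 1, or a bound above 1 for IFI16. The exceptions were IFI27, IFI44L, IFITM1 and RSAD2, each with at most 7 reads in any line. The lines were ordered by the same reads, and no share of all genes is given, so this count is a description only.

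The median log2 difference between SK-Hep-1 and the mean of the other 3 lines was 2.20 over the 38 genes, with quartiles of 1.02 and 2.74, against -0.03 over all genes. The corresponding medians were -1.09 in Hep3B (all genes, -0.06), -0.93 in Huh-7D12 (-0.05) and 0.02 in HepG2 (-0.08). Over all 43 genes, with no entry level, they were 1.99 in SK-Hep-1, -0.77 in Hep3B, -0.68 in Huh-7D12 and -0.05 in HepG2. These 4 values are not independent, since each line is among those that the others are set against. The range of a gene over the 4 lines had a median of 2.83 on the log2 scale for the 38 genes and of 1.42 for all genes.

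**Figure D2:**
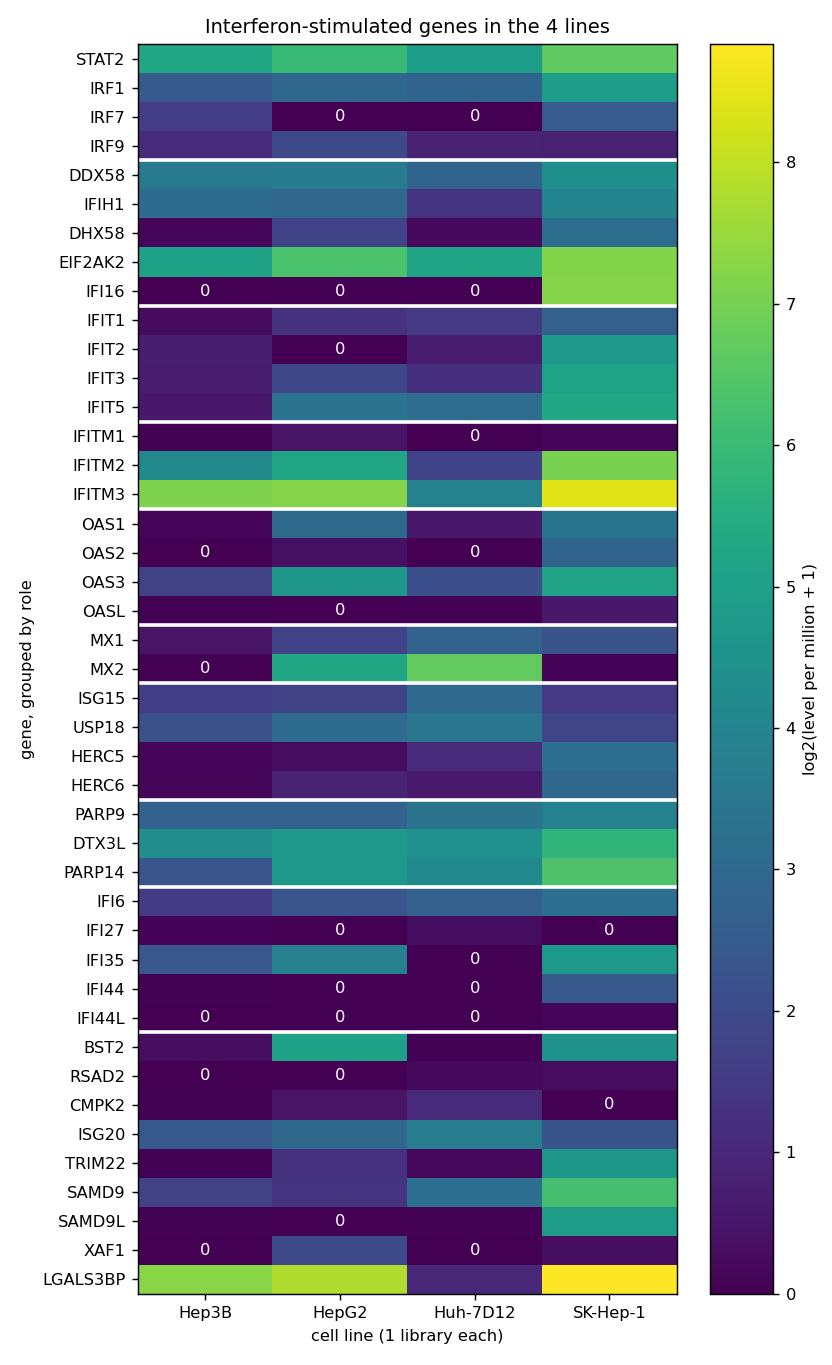
Level of each of the 43 genes in the 4 lines, as log2(level + 1), with 1 library per line on the x axis and genes grouped by role on the y axis; a cell marked 0 had no reads. Most rows are brightest in SK-Hep-1, with IFI16 at 0 reads in the other 3 lines, while MX2 is brightest in Huh-7D12 and BST2 in HepG2.

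**Figure D3:**
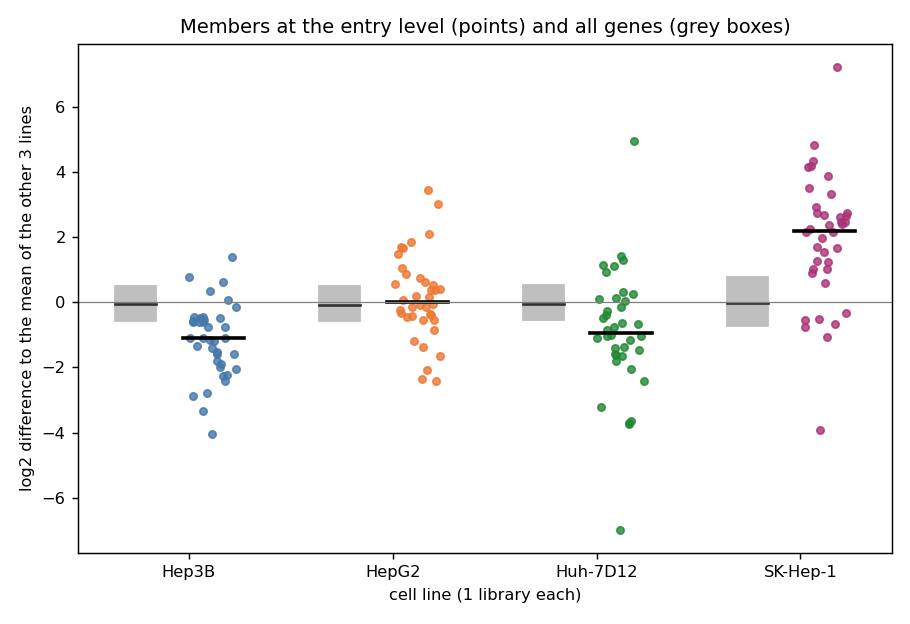
Log2 difference of each line to the mean of the other 3, for the 38 genes that entered (points, black bar at the median) and for all 15850 genes (grey box from the lower to the upper quartile, dark bar at the median). The points of SK-Hep-1 have a median of 2.20 and those of Hep3B of -1.09. The points show each of the 38 genes and the grey boxes only the quartiles of all genes, so their widths cannot be compared.

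By the 4-fold rule, 15 of the 43 genes stood apart in 1 line. In SK-Hep-1 10 stood higher, against 5.37% of all genes that entered, and 0 lower (3.31% of all genes). In Huh-7D12 4 stood lower (0.536%) and 0 higher (1.52%). Hep3B had 1 gene lower (0.448%) and 0 higher (0.808%), and HepG2 had 0 in either direction (1.46% of all genes higher and 1.15% lower). With a pseudocount of 4, which weighs low levels less, the calls of IFI44, HERC5, HERC6, OAS2, IFITM2, IFI35 and IFIT5 ended. That left 2 genes lower in Huh-7D12 and 6 higher in SK-Hep-1, counts for which no share of all genes is given. Pairs of lines were also compared, a rule added after the values were seen: BST2, OAS1 and OAS3 stood at least 4-fold higher in both HepG2 and SK-Hep-1 than in both other lines (0.505% of all genes), and MX2 did so in HepG2 and Huh-7D12 (0.29%). For the remaining pairs 0 genes did, where the shares of all genes were 0.492% for Hep3B and HepG2, 1% for Hep3B and Huh-7D12, 0.328% for Hep3B and SK-Hep-1 and 0.7% for Huh-7D12 and SK-Hep-1. With SK-Hep-1 left out, BST2, OAS1 and OAS3 stood higher in HepG2 (2.35% of all genes), IFIT5 and MX2 lower in Hep3B (0.89%) and IFI35, IFITM2, IFITM3 and LGALS3BP lower in Huh-7D12 (1.2%).

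Of the 4 genes that transmit the signal, IRF7 lacked reads in a pair of lines and the other 3 had reads in each. STAT2 had levels of 101 in SK-Hep-1, 29.9 in Huh-7D12, 62.7 in HepG2 and 37.3 in Hep3B. The level in SK-Hep-1 was 1.61-fold (1.49 to 1.73) above that in HepG2. IRF1, a transcription factor induced by interferon gamma and by other cytokines, had a level of 29.6 in SK-Hep-1, 6.20 in Huh-7D12, 6.997 in HepG2 and 4.64 in Hep3B. Its level in SK-Hep-1 was 4.23-fold (3.49 to 5.17) above HepG2, but on the scale with the pseudocount it did not pass the 4-fold rule. Exons of C5orf56 on the opposite strand overlap 22.0% of those of IRF1. IRF7, the factor that amplifies the production of type I interferon, had 59 reads in Hep3B (level 2.06) and 90 in SK-Hep-1 (4.75), but 0 reads in HepG2 and in Huh-7D12. The level in Hep3B was at least 12.6-fold above the limit of 3 reads in HepG2. IRF9 had levels of 1.12, 2.90, 0.849 and 0.739 in the usual order. All 1739 windows of 100 bases along its longest coding transcript also occur in the annotated readthrough gene AL136295.5, so how the authors counted shared reads can set the level of IRF9, and its values are uncertain.

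Among the receptors and kinases upstream of these genes 1 stood apart, IFNLR1, lower in SK-Hep-1 (3.31% of all genes). IFNAR1, a chain of the type I receptor, was at 32.3, 29.1, 33.5 and 49.6 in the usual order. IFNAR2, the other chain, was at 1.08, 1.97, 3.14 and 2.90. JAK1 was highest in SK-Hep-1 (183, against 58.0 to 83.2), whereas TYK2 was lowest there (29.1, against 42.0 to 74.1). IFNLR1, which gives the type III receptor its specificity, had 5 reads in SK-Hep-1 (0.264) and levels of 7.71 in HepG2, 6.70 in Hep3B and 5.60 in Huh-7D12, and stood 21.2-fold (8.88 to 66.5) lower in SK-Hep-1. Of 22 interferon genes listed, IFNE had a row, with 0 reads in each line, for which the intervals reached levels of 0.129 to 0.202. The others were not analysed here.

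The sensors of foreign nucleic acid among the 43 genes all had their highest level in SK-Hep-1. IFI16 (ENSG00000163565, chromosome 1, 158999968 to 159055155), a sensor of DNA in the nucleus and cytosol, had 2795 reads in SK-Hep-1, a level of 147 (142 to 153), and 0 reads in the other 3 lines. It stood at least 899-fold higher in SK-Hep-1, taken against the limit of 3 reads in HepG2, the largest log2 difference to the nearest line of any of the 43 genes (7.21). DDX58, the gene of RIG-I, reached 20.1 in SK-Hep-1, 6.24 in Huh-7D12, 11.1 in HepG2 and 11.9 in Hep3B. IFIH1, the gene of MDA5, was at 7.57, 6.94, 1.49 and 15.0. EIF2AK2, the gene of the kinase PKR that halts translation when it binds double-stranded RNA, was at 32.2, 78.8, 34.98 and 145. DHX58 encodes LGP2, which modulates RIG-I and MDA5, and split the lines more widely, with 0.105 in Hep3B and 0.170 in Huh-7D12 against 2.46 in HepG2 and 8.07 in SK-Hep-1.

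Further genes of sensing and induction, from a list of 27 symbols of which 21 had a row and 18 entered, gave 3 that stood higher in SK-Hep-1 (5.37% of all genes) and 0 that stood apart in other lines. CGAS, the gene of the cytosolic DNA sensor cGAS, had 265 reads in SK-Hep-1 (14.0) and 1 to 5 in the other lines, and was 65.9-fold (27.9 to 205) higher. TLR3, a receptor for double-stranded RNA in endosomes, was 14.2-fold (8.52 to 25.4) higher at a level of 9.65. RNF135, a ubiquitin ligase that acts on RIG-I, had 192 reads in SK-Hep-1, 1 in Hep3B and 0 in HepG2 and Huh-7D12, a ratio to Hep3B of 290.2 (51.5 to 11523). Among 21 negative regulators, SK-Hep-1 had 2 that stood higher and 1 that stood lower, where the shares of all genes were 5.37% and 3.31%, so that these counts lie near the background. SOCS2 and SOCS3, inhibitors of cytokine receptors and JAK kinases, were the higher ones, by 12.8-fold (8.40 to 20.3) for the first and 7.58-fold (6.26 to 9.23) for the second. The phosphatase gene PTPN6 stood 62.2-fold (16.8 to 519) lower there.

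All 4 IFIT genes, which encode proteins with tetratricopeptide repeats that bind viral RNA, had their highest level in SK-Hep-1, and 2 of them, IFIT2 and IFIT3, stood higher there by the 4-fold rule, while IFIT5 stood lower in Hep3B. They lie beside each other on chromosome 10 between 89283694 and 89421001. IFIT2 had levels of 26.8 (24.5 to 29.2) in SK-Hep-1, 0.594 in Huh-7D12, 0 in HepG2 and 0.663 (19 reads) in Hep3B. Its level in SK-Hep-1 exceeded that in Hep3B by 40.4-fold (25.6 to 67.7). IFIT3 had 0.628, 2.73, 1.27 and 34.2 (31.6 to 36.9), with 12.5-fold (9.37 to 17.03) between SK-Hep-1 and HepG2. IFIT5 reached 38.3 in SK-Hep-1, 7.85 in Huh-7D12, 9.40 in HepG2 and 0.524 in Hep3B. It stood 15.0-fold (8.86 to 27.4) lower in Hep3B than in Huh-7D12, the nearest line, and its fold between SK-Hep-1 and HepG2 was 4.07 (3.44 to 4.83). IFIT1, the founding member, was at 0.209, 1.37, 1.83 and 5.49, with a step of 3.01-fold (2.09 to 4.39) between SK-Hep-1 and Huh-7D12. Hep3B had the lowest level of IFIT1, IFIT3 and IFIT5, while HepG2 had no reads of IFIT2 and 50 of IFIT3. Of the windows along IFIT2, 7.13% also occur in the antisense-named gene AL353751.1 on the same strand, which had at most a deposited value of 6.73, and its exons share 65 bases with LIPA on the opposite strand.

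IFITM2 and IFITM3 had the opposite extreme, a low level in Huh-7D12. IFITM3 was at 349.6 (341 to 358) in SK-Hep-1, 149.6 (144 to 155) in HepG2, 139.9 (136 to 144) in Hep3B and 13.7 (12.2 to 15.2) in Huh-7D12. IFITM2 ranked the lines alike, at 17.4, 36.5, 2.46 (1.87 to 3.18) and 132. It stood 7.06-fold (5.37 to 9.43) lower in Huh-7D12 than in Hep3B, beside 10.2-fold (9.13 to 11.5) for IFITM3. IFITM1 had 7 reads in HepG2, 2 in SK-Hep-1, 1 in Hep3B and 0 in Huh-7D12, so that lines next to each other in this order could not be told apart at this depth. Of the windows along IFITM1, 37.7% also occur in transcripts of IFITM2 or IFITM3, and 351 of the 1080 bases of its merged exons are shared with IFITM2. Its level is therefore uncertain. Set against its exon length, IFITM3 had the highest level per kilobase of the 43 genes in each line, 259 in SK-Hep-1, 10.1 in Huh-7D12, 111 in HepG2 and 104 in Hep3B.

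**Figure D4:**
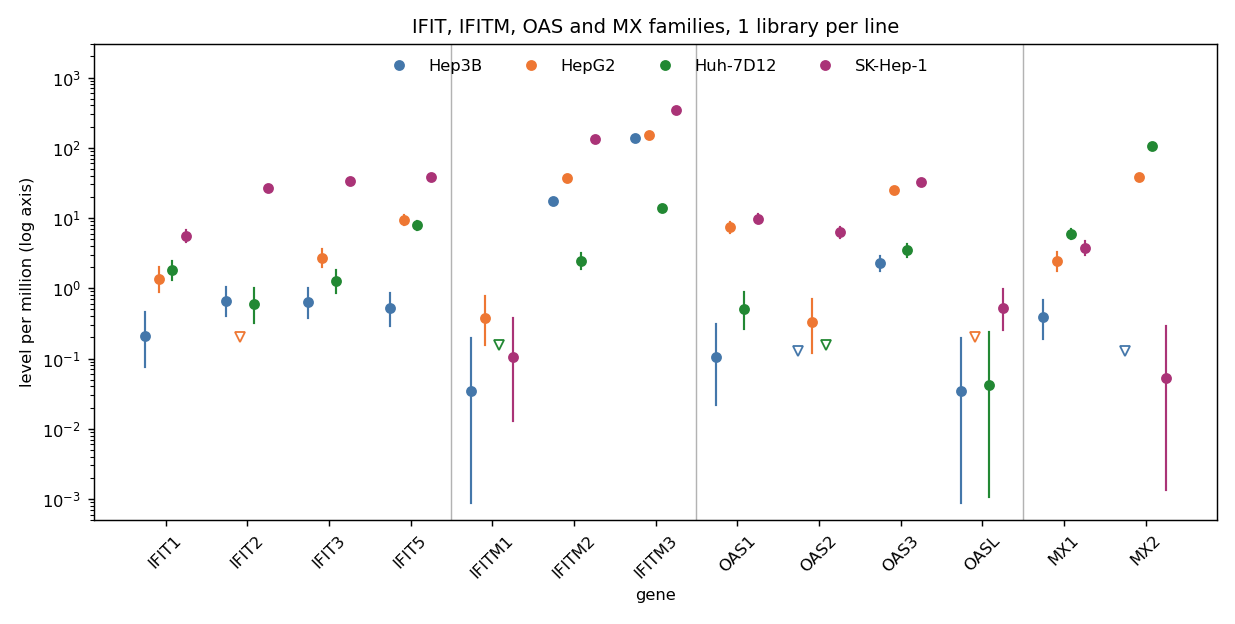
Level of the IFIT, IFITM, OAS and MX genes in each line on a log axis, with bars for exact 95% Poisson intervals; an open triangle marks the upper end of that interval in a line with 0 reads. IFIT2 and IFIT3 lie far above the other lines in SK-Hep-1 (26.8 and 34.2), IFITM2 and IFITM3 lie lowest in Huh-7D12, and MX2 reaches 105 in Huh-7D12 but 0.0528 in SK-Hep-1.

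Among OAS1, OAS2 and OAS3, whose products make the messenger that activates RNase L, OAS1 and OAS3 were high in both HepG2 and SK-Hep-1. OAS1 reached 9.76 (8.40 to 11.3) in SK-Hep-1, 0.509 in Huh-7D12, 7.38 (6.19 to 8.73) in HepG2 and 0.105 (3 reads) in Hep3B. The step from HepG2 down to Huh-7D12 was 14.5-fold (8.03 to 28.7), and that from SK-Hep-1 to HepG2 1.32-fold (1.05 to 1.66). OAS3 repeated this at higher levels, 2.27, 24.7, 3.48 and 32.9, with 7.08-fold (5.59 to 9.07) between HepG2 and Huh-7D12. OAS2, which lies next to OAS3 on chromosome 12, did not share the level of HepG2: it had 0 reads in Hep3B and Huh-7D12, 6 in HepG2 (0.328) and 119 in SK-Hep-1 (6.28), and stood 19.1-fold (8.54 to 53.2) higher in SK-Hep-1. OASL, a related gene on the same chromosome, had 10 reads in SK-Hep-1 and 0 or 1 in the others.

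MX2 ran against the general order of the lines. It encodes a GTPase at the nuclear envelope that restricts HIV, and had 2465 reads in Huh-7D12, 695 in HepG2, 1 in SK-Hep-1 and 0 in Hep3B. The levels were 38.0 (35.2 to 40.9) in HepG2 and 105 (101 to 109) in Huh-7D12, which was 2.75-fold (2.53 to 3.001) higher, and that of HepG2 was 720-fold (129 to 28482) above SK-Hep-1. Its neighbour MX1 on chromosome 21, between the positions 41420304 and 41459214, was also highest in Huh-7D12, at 5.90 (4.96 to 6.97), but was at 3.80 in SK-Hep-1, 2.41 in HepG2 and 0.384 in Hep3B. The fold of MX1 between Huh-7D12 and SK-Hep-1 was 1.55 (1.16 to 2.09).

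ISG15 and its protease did not follow the ligases of the same pathway. ISG15, a ubiquitin-like protein that is attached to other proteins, had its highest level in Huh-7D12 (7.09, 6.06 to 8.25) and levels of 2.06 in Hep3B, 2.24 in HepG2 and 1.74 in SK-Hep-1, the intervals of which overlapped. USP18, which removes ISG15 and restrains the type I receptor, was at 3.59, 7.43, 10.1 and 2.64 in the usual order, but 15.4% of the windows along it also occur in its copy USP41, so that its reads may be split. HERC5, the main ligase of ISG15 in human cells, was at 0.105, 0.219, 1.10 and 8.44 and stood 7.65-fold (5.03 to 12.1) higher in SK-Hep-1. HERC6, its neighbour on chromosome 4, was at 0.105, 0.820, 0.552 and 6.65, and stood 8.11-fold (4.73 to 14.9) higher there. That call ended (log2 difference 1.96) when each line was scaled to its own reads outside mitochondrial genes.

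PARP9, DTX3L and PARP14, which act in ADP-ribosylation and lie together on chromosome 3, were all highest in SK-Hep-1 without passing the rule. PARP14 reached 82.3 in SK-Hep-1, 17.5 in Huh-7D12, 25.04 in HepG2 and 3.98 in Hep3B, with 3.29-fold (2.96 to 3.66) between SK-Hep-1 and HepG2. DTX3L, the ubiquitin ligase that pairs with PARP9, was at 19.8, 25.3, 21.2 and 53.5. PARP9 was at 5.79, 5.90, 9.60 and 13.6, the smallest step of the 3 genes (1.42-fold, 1.18 to 1.70). PARP9 and DTX3L share 217 bases of exon on opposite strands. Whether the authors counted by strand is not stated, so reads of such pairs may be mixed.

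The IFI genes behaved separately. IFI35, which binds the regulator NMI, had 124 reads in Hep3B (4.33), 247 in HepG2 (13.5), 475 in SK-Hep-1 (25.1) and 0 in Huh-7D12, where it stood at least 34.0-fold lower. IFI44 had 86 reads in SK-Hep-1 (4.54), 1 in Hep3B and 0 in the other lines, a ratio to Hep3B of 130.01 (22.7 to 5194). IFI6, a mitochondrial and endoplasmic reticulum protein that limits cell death and flavivirus replication, had reads in every line, at 1.95, 4.05, 5.48 and 8.34 in the usual order. IFI27 had 2 reads in Hep3B, 6 in Huh-7D12 and 0 in HepG2 and SK-Hep-1, and IFI44L had 2 reads in SK-Hep-1 alone.

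Among the other effectors, LGALS3BP was nearly absent from Huh-7D12 and SAMD9L was almost limited to 1 line. LGALS3BP (ENSG00000108679, chromosome 17, 78971238 to 78980109), a secreted glycoprotein that binds galectins, was at 152 (148 to 157) in Hep3B, 219 (213 to 226) in HepG2, 456 (446 to 466) in SK-Hep-1 and 0.976 (0.619 to 1.47) in Huh-7D12. Its level in Huh-7D12 was 156-fold (104 to 247) below Hep3B. SAMD9 and SAMD9L, neighbours on chromosome 7 that restrict poxviruses, both stood higher in SK-Hep-1. SAMD9L had 533 reads there (28.1) and 1, 0 and 1 in Hep3B, HepG2 and Huh-7D12, a ratio of 662-fold (118 to 26209.8) to Huh-7D12. SAMD9 was measurable in every line, at 2.27, 1.59, 8.36 and 74.7 in the usual order, and stood 8.93-fold (7.68 to 10.4) higher. TRIM22, a ubiquitin ligase that restricts several viruses, had 466 reads in SK-Hep-1 (24.6), 25 in HepG2, 3 in Huh-7D12 and 1 in Hep3B, and stood 18.0-fold (12.03 to 28.1) higher.

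BST2 and XAF1 were highest in HepG2. BST2, the gene of tetherin, which holds budding virus at the cell surface, reached 21.5 (19.4 to 23.7) in SK-Hep-1, 0.0425 (1 read) in Huh-7D12, 32.3 (29.8 to 35.02) in HepG2 and 0.244 (7 reads) in Hep3B. The step from SK-Hep-1 down to Hep3B was 87.9-fold (42.3 to 220.0). XAF1, a pro-apoptotic antagonist of XIAP, had 53 reads in HepG2 (2.90), 5 in SK-Hep-1 and 0 in Hep3B and Huh-7D12, and PRAL on the opposite strand overlaps 38.3% of its exons. CMPK2 and RSAD2, neighbours on chromosome 2 that make and use related nucleotides against viruses, were at or under 27 reads in every line: CMPK2 had 1, 7, 27 and 0 reads in the usual order, and RSAD2 had 0, 0, 4 and 4. ISG20, an RNA exonuclease, was highest in Huh-7D12 at 12.1 (10.7 to 13.6), against 4.43 in Hep3B, 6.83 in HepG2 and 3.85 in SK-Hep-1.

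Summed over the 43 genes, the reads made up 0.0763%, 0.120%, 0.0488% and 0.268% of the reads outside mitochondrial genes, in the usual order. IFITM3 and LGALS3BP together held 63.5%, 46.5%, 4.61% and 41.8% of these reads in the usual order. Without these 2 genes the shares were 0.0278%, 0.0644%, 0.0466% and 0.156%, so that Hep3B in place of Huh-7D12 had the lowest share.

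The 43 genes lie at 29 loci, counting genes within 250 kb of each other as 1 locus, and 23 of them share 9 of these loci. Genes of 1 locus could differ in pattern, as MX1 and MX2 and OAS2 and OAS3 did. The nearest protein-coding genes that entered on either side of each locus, within 250 kb and outside the 43, numbered 49. Of the 7 beside a locus with a gene higher in SK-Hep-1, 1 stood higher there too (5.37% of all genes), PTGFR beside IFI44 (named after its values were seen). Of the 6 beside a locus with a gene lower in Huh-7D12, 0 stood lower in that line, where the share of all genes was 0.536%, so that nothing is read from this count. TIMP2 and CANT1 lie on either side of LGALS3BP. TIMP2 was at 26.3, 27.7, 6.45 and 248, and CANT1 at 34.5, 37.3, 21.7 and 78.9, both lowest in Huh-7D12. By the 4-fold rule TIMP2 stood higher in SK-Hep-1. VAT1, at 149 bases from IFI35, was at 88.0, 149, 59.3 and 349, whereas RPL27 on the other side was at 644, 984, 723 and 1881, lowest in Hep3B. Beside the IFITM genes, PGGHG was at 33.7, 9.73, 8.53 and 19.4. B4GALNT4 was at 19.5, 11.2, 4.71 and 3.96, lowest in SK-Hep-1.

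Interferon-induced genes outside the 43 were taken from a further list. Of its 54 genes, 43 entered, with a median difference of 1.39 in SK-Hep-1, -0.68 in Huh-7D12, 0.07 in HepG2 and -0.99 in Hep3B. The medians of all genes were -0.03, -0.05, -0.08 and -0.06 in these lines. In SK-Hep-1 6 of the 43 stood higher (5.37% of all genes) and 0 lower (3.31%). SLFN5, a member of the Schlafen family, was at 258 there, 54.0-fold (45.6 to 64.5) higher, and SP100, a component of PML bodies, at 121 was 10.4-fold (9.01 to 11.99) higher. PSMB9, a subunit of the immunoproteasome, was 9.19-fold (7.08 to 12.1) higher, GBP1, a guanylate-binding protein, 7.70-fold (5.69 to 10.6), SP110 5.38-fold (4.64 to 6.26) and the peptide transporter gene TAP2 5.01-fold (4.23 to 5.97). GBP2 stood 5.25-fold (4.34 to 6.41) higher in Huh-7D12 (1.52% of all genes), APOL1 6.52-fold (5.35 to 8.01) higher in HepG2 (1.46%), and TRIM38 30.9-fold (14.7 to 78.1) lower in Hep3B (0.448%).

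Few circular RNAs came from these genes. The circRNA table held 8 with 1 of the 43 genes as host, of which 4 had reads in any line, 12 back-splice reads in all. They came from 3 host genes, DDX58, EIF2AK2 and STAT2, which is 6.98% of the 43 genes, while 19.9% of all genes that entered had a circRNA with reads. The first share counts also the 5 genes that did not enter, so the 2 shares are not fully alike. Most of the 43 genes were at low levels, and the part of level in this difference was not tested. The circRNA of DDX58 (GRCh38, chromosome 9, 32480219 to 32481497) had 3 reads, all in Huh-7D12, and that of EIF2AK2 (chromosome 2, 37101923 to 37104132) had 3, all in HepG2. STAT2 gave 2 circRNAs on chromosome 12 that share the end at 56349636. The longer, from 56346146, had 3 reads in SK-Hep-1, and the shorter, from 56348529, had 1 in Hep3B and 2 in HepG2. The lines could not be told apart on these numbers, since their exact Poisson intervals overlapped. For 0 reads these reached deposited values of 3.28 in Hep3B to 5.14 in HepG2.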

How the data were processed

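Total RNA of 4 cell lines, 1 library each, went through removal of rRNA and a stranded kit with no poly(A) step, per the labels' protocols. STAR 2.6.1d and hg38 are named in the submitters' processing notes without their role; for the counter, its use of strand, the annotation and the circRNA caller, the name was not given in the sources used here. Signal values as deposited are whole reads that the authors multiplied by 1 factor per library. Dividing by the smallest value above 0 gave whole reads for 100% of the values (tolerance 0.001), with factors of 0.890, 1.39, 1.08 and 1.35 in the order Hep3B, HepG2, Huh-7D12, SK-Hep-1. An empty circRNA value was taken as 0 reads.

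Deposited values were multiplied by 1 constant, so that the mean library total is 1000000, and log2(level + 1) was taken. Genes entered with a highest level of at least 1. No count model was fitted, because a single library stands for each line. The rule of size was run on simulated data only for genes altered by far more than 4-fold. Its behaviour near 4-fold, and for genes with few reads, was not tested. Folds use levels without the pseudocount, to the nearest line; against 0 reads they are bounds at 3 reads per library (levels 0.105, 0.164, 0.127 and 0.158 in the order above). Positions, exon lengths, overlaps and shared windows of 100 bases come from GENCODE 29, promoters from RefSeq. Analyses used Python 3.11.15, numpy 2.4.6, pandas 2.3.3 and scipy 1.17.1.

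The genes and lists were chosen with earlier results of these data known. The pairs of lines, the loci and their neighbours, read shares and the circRNA share were added after the values were seen. Genes are named where they passed the 4-fold rule or belong to a family described as a group, the other members after their values were seen, and the 4 promoters by the log2 difference to the nearest line among genes that passed the rule. Protein sequences had been planned for the IFITM genes and were not used here. Alternatives were the pseudocount, the entry level, 2 scalings, a 3-fold rule and leaving out SK-Hep-1.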

Additional observations from a re-analysis of the deposited data

How the results depend on the processing

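No paired analysis was possible because each line has 1 library and the number 1 only names it. With a pseudocount of 4 in place of 1, the genes standing higher in SK-Hep-1 fell to 6 of 43, those lower in Huh-7D12 to 2 and those lower in Hep3B to 0, and the medians were 1.29 in SK-Hep-1, -0.51 in Huh-7D12, -0.028 in HepG2 and -0.64 in Hep3B; IFI44, HERC5, HERC6, OAS2, IFITM2, IFI35 and IFIT5 lost their calls. With 0.25, 11 genes stood higher in SK-Hep-1, 5 lower in Huh-7D12, 3 lower in Hep3B and 1 higher in HepG2. The medians with 0.25, in the usual order of the lines, were -1.33, 0.21, -1.08 and 2.58. At an entry level of 5, the HepG2 median was -0.052, that of SK-Hep-1 2.37, and 1 gene was highest in HepG2. With no entry level the medians were -0.77, -0.052, -0.68 and 1.99, the sign in HepG2 being turned. Scaling to reads outside mitochondrial genes moved the median log2 difference of all genes by 0.14 in Hep3B and -0.15 in SK-Hep-1, and gave 2.06 in SK-Hep-1 for the members; with median of ratios scaling the 15 calls all held. Without SK-Hep-1 the medians were 0.92 in HepG2, -0.30 in Huh-7D12 and -0.71 in Hep3B; 3 genes stood higher in HepG2 and 2 lower in Hep3B, and the highest level was in HepG2 for 18, Huh-7D12 for 11 and Hep3B for 3. A 3-fold rule gave 14 genes higher in SK-Hep-1, 5 lower in Huh-7D12, 2 lower in Hep3B and 1 higher in HepG2. Apart from the 4-fold counts without SK-Hep-1, given above with theirs, the counts under these settings have no share of all genes beside them. They are a description only. The cause of the changes between settings was not tested. One library per line limits every comparison, and levels under about 0.164 lie below 3 reads in HepG2.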
